A study of Mus musculus with 10 samples.

Results

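The 8 tumors compared here were taken from the mammary glands of mice, and they are 8 of the 10 tumors of the series. By their labels, 3 were sarcomatoid (tumors 323, 307 and 594) and 5 were adenocarcinomas (tumors 105, 131, 470, 17 and 85). The term for tumors 323 and 307 was sarcomatoid adenocarcinoma, and that for tumor 594 was sarcomatoid carcinoma. The 2 sarcomatoid tumors that grew in the lung were left out, so that all members came from the mammary site. Each tumor was bulk tissue from a primary tumor, measured on 1 array. The labels do not say that each came from an animal of its own, so p-values measure only the spread between these tumors.

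The mice that bore the 8 tumors carried MMTV-Cre, a transgene that drives the Cre recombinase mainly in mammary epithelium. The compound mutants were on a C57BL/6 background. According to the methods, the 5 adenocarcinomas came from Pik3ca H1047R;Trp53 R270H;MMTV-Cre mice. The sarcomatoid primaries had 3 genotypes, namely Pik3ca H1047R;Trp53 R270H;MMTV-Cre, Pik3ca H1047R;MMTV-Cre with a spontaneous Trp53 R245H mutation, and Trp53 R270H;MMTV-Cre. The first and the second of these gave rise to the lung tumors and therefore belong to tumors 323 and 307, but the sources used here do not tell which is which, and the genotype without a Pik3ca allele falls to tumor 594 by elimination. Only 1 of the 3 sarcomatoid tumors shared the genotype of the adenocarcinomas, so tumor type and genotype cannot be told apart in the other 2. The ages of the mice were not given in the sources used here.

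An adenocarcinoma keeps glandular epithelium, in which keratins, desmosomes and tight junctions hold polarized cells together. In a sarcomatoid, or spindle cell, carcinoma some or all of the tumor cells have a mesenchymal shape, a state linked to epithelial-mesenchymal transition (EMT). During EMT, transcription factors of the Snail and Zeb families bind E-box sequences and repress epithelial genes, while matrix, protease and motility genes become active. Both kinds of tumor also hold fibroblasts, vessels and immune cells.

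Every value below is a log2 ratio of the red over the green channel from the deposited normalized table, and every difference is a sarcomatoid mean minus an adenocarcinoma mean on that scale. Red was read as the tumor and green as a reference RNA common to the arrays, against the dye named in the labels, which give Cy3 (green) to the tumor. The reading is likely and not certain. It rests on the green signals varying less between the 8 arrays than the red signals (SD of a probe's log2 signal over the arrays, on average 0.627 in green and 0.906 in red). Within each scan batch of several arrays, described next, the least similar pair of arrays also agreed better in green, at r = 0.986 against 0.95 in red (batch 2) and 0.967 against 0.933 (batch 3). If green held the tumors, every sign given below would turn. A ratio of 0 means a level equal to that of the reference, so levels are compared between tumors for 1 gene and not between genes.

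Depth on an array means signal over background. Between 52.2% (tumor 85) and 83% (tumor 105) of the probes on the array were well above background in red. The 8 arrays fell into 3 scan batches, named after the extraction protocol in the file headers. Tumor 323 was alone in batch 1, tumors 307, 594, 105 and 470 were in batch 2, and tumors 131, 17 and 85 were in batch 3. Only batch 2 therefore held both kinds of tumor. A single slide carried the arrays of tumors 307 and 105, and another those of tumors 594 and 470. Across all 40196 probes, which are not independent replicates, the profile of tumor 470 correlated less with the other adenocarcinomas (mean r = 0.494) than with the sarcomatoid tumors (0.724), and its closest profile was that of tumor 594 on the same slide (r = 0.772). Tumor 105 was also slightly closer to the sarcomatoid tumors (0.631 against 0.605). Because tumor 470 stands apart from its label in this way, each comparison is given with it (3 tumors against 5) and without it (3 against 4).

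Epithelial genes had lower and macrophage, EMT and protease genes higher values in the sarcomatoid tumors than in the adenocarcinomas 105, 131, 17 and 85, and tumor 470 sat with the sarcomatoid tumors or beyond them for most of the probes called without it. With all 8 tumors in limma's fit of 40196 probes, the count past the adjusted threshold of 0.05 was 0 in the higher direction (0.0%) and 0 in the lower (0.0%), with no adjusted p under 0.485. Before adjustment, 3200 probes (7.96%) had a p under 0.05, of which 1831 (4.56%) were higher and 1369 (3.41%) lower. Without tumor 470, 101 probes (0.251%) passed the adjusted threshold, of which 63 (0.157%) rose and 38 (0.0945%) fell. Before adjustment there were then 5878 probes (14.6%), with 3109 (7.73%) higher and 2769 (6.89%) lower. The 3 sarcomatoid values lay wholly above the 5 adenocarcinoma values for 1569 probes (3.9%) and wholly below them for 774 (1.93%). Without tumor 470 these numbers were 3550 (8.83%) and 2529 (6.29%). Leaving out any other single adenocarcinoma gave 1890 to 2187 probes wholly above and 914 to 1259 wholly below. Leaving out a sarcomatoid tumor gave 3183 and 2317 without tumor 307, 2744 and 1395 without 323, and 2748 and 1617 without 594. These counts set 2 tumors against 5, a split that separates more often by chance than 3 against 4. They cannot be compared directly with the counts without tumor 470. The 101 calls rest on every sarcomatoid tumor and on tumors 131 and 85, because with tumor 470 out and also 323, 307, 594, 131 or 85 out, 0 probes passed limma's adjusted threshold in either direction (1827 to 2633 per direction before adjustment).

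**Figure D1:**
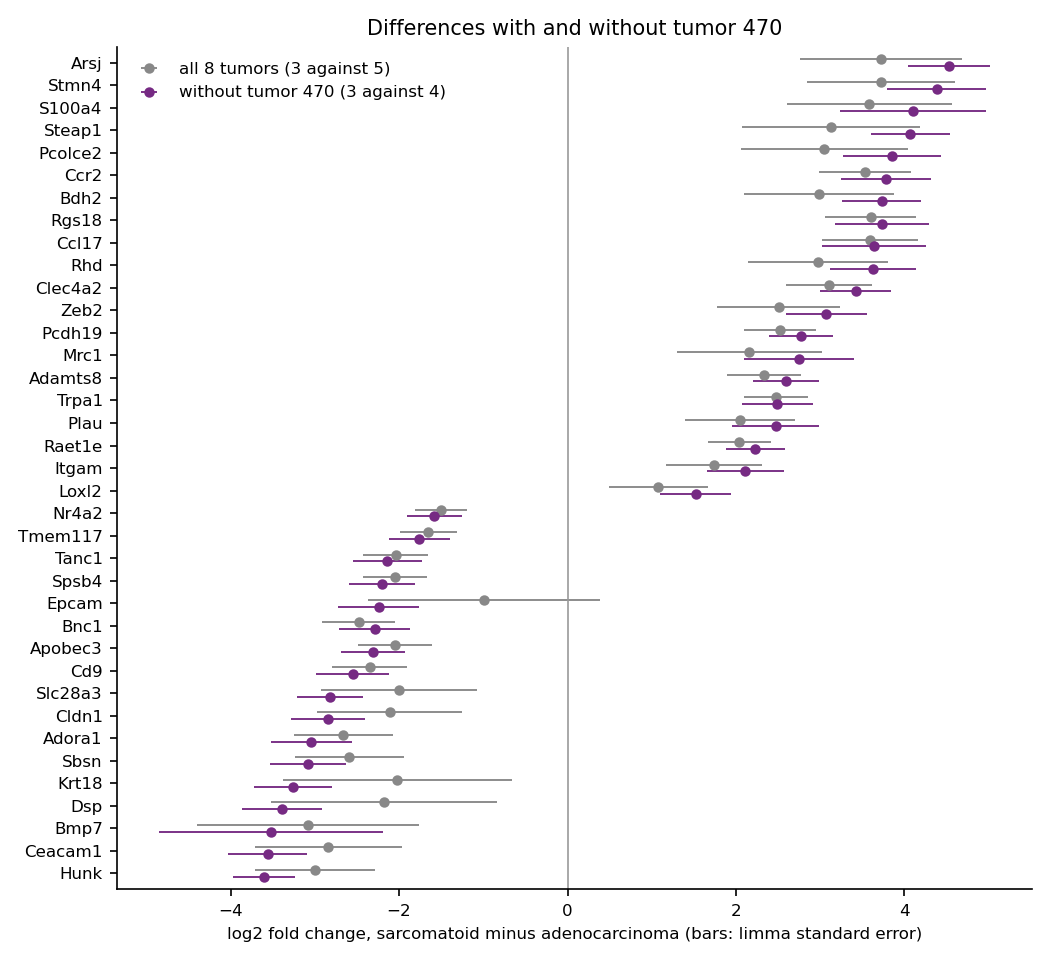
Difference between mammary sarcomatoid tumors and adenocarcinomas for the genes named by the study and those picked by the size or clarity of their difference, on the x axis as a log2 fold change (sarcomatoid minus adenocarcinoma), with limma's standard error as bars. Grey points use all 8 tumors and purple points leave out tumor 470. The error bar of Krt18 shrinks from 1.36 to 0.46 and that of Dsp from 1.34 to 0.47 without tumor 470, while that of Bmp7 stays at 1.32 and 1.33.

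Keratins and junction proteins were the epithelial genes with the clearest differences. In what follows, sarcomatoid values are in the order of tumors 323, 307 and 594, and adenocarcinoma values in the order 105, 131, 17 and 85, with tumor 470 named apart. Krt18, a keratin of simple (luminal) epithelium (probe at chr15:102018067-102018126, mm7), had log2 ratios of -0.58, -1.24 and -2.02 in the sarcomatoid tumors, 1.21, 2.04, 1.89 and 2.78 in the adenocarcinomas, and -4.22 in tumor 470. Tumor 470 thus had the lowest Krt18 value of all, and without it the groups did not overlap. The difference was -2.02 ± 1.36 (limma SE, n = 3 against 5, adjusted p = 0.659) with tumor 470 and -3.26 ± 0.46, or 9.59-fold lower, without it (n = 3 against 4, limma adjusted p = 0.044). Its partner Krt8 (chr15:101983072-101983131) had -0.67, -0.61 and -1.32 against 1.10, 1.67, 2.33 and 1.85, and -4.58 in tumor 470. The 2 keratins, which form filaments together, thus had the same order of groups. Krt8 differed by -1.34 ± 1.36 with tumor 470 (limma adjusted p = 0.753) and fell by 2.60 on the log2 scale without it (SE 0.37, adjusted p = 0.044).

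Desmosomes anchor keratin filaments to the cell border, and Dsp encodes desmoplakin, the link between filament and border. The Dsp probe (chr13:37617147-37617206, mm7) read 0.92, 1.12 and 1.65 in the sarcomatoid tumors and 5.73, 3.85, 4.09 and 4.82 in the adenocarcinomas, with -1.44 in tumor 470. Again tumor 470 was the lowest of the 8, and the other adenocarcinomas lay wholly above the sarcomatoid tumors. Dsp differed by -2.18 ± 1.34 (adjusted p = 0.643, limma) with tumor 470 and by -3.39 ± 0.47, a 10.5-fold lower level, without it (adjusted p = 0.044). The other 3 Dsp probes gave smaller differences without tumor 470, from -2.27 to -1.44, and did not pass. Epcam, an epithelial surface adhesion protein listed on the array under its older name Tacstd1 (chr17:85952074-85952902), read 1.48, 1.38 and 0.07 against 3.29, 2.44, 3.12 and 4.03, with -3.03 in tumor 470. Its groups separated in the same way without tumor 470, but the difference of -2.24 ± 0.48 (4.72-fold) had an adjusted p of 0.0874 in limma and did not pass, and with tumor 470 it was -0.99 ± 1.38 (adjusted p = 0.826). Krt18, Epcam and Dsp were named by the study on these tumors together with the lung tumors, so their direction is not independent evidence.

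Over the 26 genes fixed as epithelial keratins and adhesion genes, the median difference was -1.0 with tumor 470 and -1.85 without it, against -0.01 and -0.02 over all probes. Of the 26, 0 passed the adjusted test with tumor 470, and 5 fell without it. Those 5 were Krt8, Krt18, Dsp, Pkp3 (a plakophilin of desmosomes) and Lsr (a protein of the corners where 3 cells meet). At an unadjusted p below 0.05, 2 were lower with tumor 470 and 19 without it, against 3.41% and 6.89% of all probes. Without tumor 470, 20 did not overlap, against 6.29% of all probes wholly lower. The median level of the list was 1.51, 1.34 and 0.61 in the sarcomatoid tumors and 3.32, 2.89, 2.89 and 2.95 in the adenocarcinomas, and it was -1.05 in tumor 470. A total of 24 of the 26 probes were well above background in red on all 8 arrays, so the epithelial markers were measured in every tumor. In bulk tissue, fewer epithelial cells and less RNA of these genes per cell cannot be told apart. Spint2, an inhibitor of the epithelial protease matriptase, read -0.92, 0.05 and 0.50 against 3.31, 3.81, 1.41 and 2.90, with -2.87 in tumor 470. Its difference without tumor 470, -2.98 ± 0.58, did not pass (limma adjusted p = 0.0726).

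The promoters of the genes that lead this group are printed here because the E-box CACCTG, read on the other strand as CAGGTG, is the sequence that Snail and Zeb factors are known to bind. Each is the 300 bases from 250 before to 50 after the start of the gene (RefSeq, GRCm38.p6), in lower case with the E-box in capitals.
Krt18 promoter, chr15:102027966-102028265, plus strand: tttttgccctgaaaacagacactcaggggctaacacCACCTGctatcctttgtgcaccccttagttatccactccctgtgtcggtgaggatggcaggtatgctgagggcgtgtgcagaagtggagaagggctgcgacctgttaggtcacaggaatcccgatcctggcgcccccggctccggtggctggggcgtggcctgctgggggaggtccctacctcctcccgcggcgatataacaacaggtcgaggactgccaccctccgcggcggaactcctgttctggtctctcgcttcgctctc
Krt8 promoter, chr15:102004293-102004592, minus strand: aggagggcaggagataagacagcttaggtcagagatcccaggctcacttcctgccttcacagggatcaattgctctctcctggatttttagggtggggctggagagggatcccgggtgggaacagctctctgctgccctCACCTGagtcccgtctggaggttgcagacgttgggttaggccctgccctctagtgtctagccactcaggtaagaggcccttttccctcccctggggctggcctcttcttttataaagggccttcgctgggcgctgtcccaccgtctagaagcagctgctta
Dsp promoter, chr13:38151044-38151343, plus strand: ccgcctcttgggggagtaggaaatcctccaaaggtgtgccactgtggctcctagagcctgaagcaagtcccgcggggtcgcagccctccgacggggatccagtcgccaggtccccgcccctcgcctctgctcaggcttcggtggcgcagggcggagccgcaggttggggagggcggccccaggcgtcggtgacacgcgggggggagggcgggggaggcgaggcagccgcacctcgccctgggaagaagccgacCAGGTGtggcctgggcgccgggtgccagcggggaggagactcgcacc
Epcam promoter, chr17:87635729-87636028, plus strand: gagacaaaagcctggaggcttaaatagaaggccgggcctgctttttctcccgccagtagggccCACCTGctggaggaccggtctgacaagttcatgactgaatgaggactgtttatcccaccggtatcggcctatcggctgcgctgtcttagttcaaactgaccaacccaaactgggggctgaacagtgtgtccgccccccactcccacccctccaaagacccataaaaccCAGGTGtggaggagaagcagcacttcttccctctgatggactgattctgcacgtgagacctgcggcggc
Krt18, Krt8 and Dsp each held 1 E-box and Epcam held 2. Of the 26 epithelial genes 17 had a promoter in the RefSeq table, and 14 of these (82.4%) held at least 1 E-box and 8 (47.1%) at least 2, while Cldn7, Jup and Spint1 held none. Of the 17 epithelial transcription and splicing factors 8 were found, and 3 of these (37.5%) held at least 1 E-box and 1 (12.5%) at least 2. Among all 27025 promoters of the same length, 5413 (20%) held the E-box and 2.8% held at least 2. Of the 24 genes that fell without tumor 470, 18 were found and 10 of them (55.6%) held it, and of the 40 that rose, 27 were found and 2 (7.4%) held it. Median GC content differed between these sets (61.3% in the epithelial list, 66.7% in the genes that fell, 57.0% in those that rose and 52.7% over all), and its part in the shares was not tested. A match is a description of letters, not a bound site.

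Most transcription and splicing factors that maintain epithelium were lower by value, as the structural genes were (15 of 17 in both fits). Ovol1, a factor of epithelial differentiation (chr19:5444015-5444074, mm7), read -0.35, 0.92 and 0.29 in the sarcomatoid tumors against 3.78, 1.80, 3.83 and 3.46, with -0.72 in tumor 470. Grhl2, a grainyhead factor that activates junction genes, read 3.58, 2.40 and 1.53 against 5.16, 4.66, 4.59 and 5.46, with -0.65 in tumor 470. Both genes separated the groups only when tumor 470 was left out, and neither passed (limma differences without tumor 470 of -2.93 ± 0.54, adjusted p = 0.0655, and -2.46 ± 0.48, adjusted p = 0.0734). Over the 17 measured genes of this list the median difference was -0.90 with and -1.60 without tumor 470. Of these genes, 0 passed the adjusted test in either fit. At an unadjusted p below 0.05, 11 were lower without tumor 470, against 6.89% of all probes. Without tumor 470, 7 of the 17 lay wholly lower, against 6.29% of all probes. The other 2 genes of the list picked by the rule, Grhl1 and the luminal factor Spdef, overlapped between the groups in both fits. So did the splicing factors Esrp1 and Esrp2. Elf5 and Gata3 ran the other way by value, at 0.81 and 0.17 with tumor 470 and 0.27 and 0.05 without it. Esrp1, Esrp2, Elf5 and Gata3 were named after their values were seen. The basal keratins and basement membrane genes were lower by value for 13 of 13 genes, with smaller medians of -0.50 and -0.94, and 0 passed. Itga6, an integrin subunit that binds laminin, was the closest to passing (-1.88 ± 0.40 without tumor 470, limma adjusted p = 0.0876), with -0.05, -0.23 and -0.08 against 0.92, 1.69, 1.82 and 2.60, and -0.32 in tumor 470.

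Of the EMT transcription factors, Zeb2 stood out. Zeb2, a repressor of epithelial genes listed as Zfhx1b (probe at chr2:44994565-44994624, mm7), read 1.75, 1.28 and 1.65 in the sarcomatoid tumors and -0.77, -2.36, -0.70 and -2.20 in the adenocarcinomas, and 1.26 in tumor 470. The 3 sarcomatoid values lay above all 5 adenocarcinoma values, with tumor 470 just below the lowest of them. The difference was 2.51 ± 0.73 with tumor 470 (5.71-fold, limma adjusted p = 0.626) and 3.07 ± 0.48 without it (8.38-fold, adjusted p = 0.0479), and the other 3 Zeb2 probes gave 2.47 to 2.88 without passing. Zeb1, its paralog, read -0.09, 0.44 and 0.17 against -1.39, -2.35, -0.90 and -2.55, with 0.76 in tumor 470. The Snail factor Snai1 read -0.30, -0.10 and 0.36 against -1.77, -2.57, -1.56 and -0.60, with 0.17. Both separated the groups without tumor 470 but did not pass (1.97 ± 0.44, adjusted p = 0.0937, and 1.61 ± 0.46, adjusted p = 0.163, limma). Snai2 overlapped, since tumor 105 read -0.01 against -0.55, -0.08 and -0.23 in the sarcomatoid tumors, while tumors 131, 17 and 85 read -4.36, -3.90 and -3.0. Over the 9 genes the median difference was 0.92 with and 1.5 without tumor 470, and Zeb2 was the 1 that passed. The smallest differences with all 8 tumors were those of Twist2 (0.08), Tcf4 (-0.09) and Foxc2 (-0.27). Without tumor 470 these genes differed by 0.92, 0.04 and -0.24. In bulk tissue, the cells that carried the Zeb2 difference cannot be told.

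Of the 11 genes the study named, 0 passed with tumor 470, and without it Krt18 and Dsp fell and Zeb2 and Arsj rose. The study also named Loxl2, Plau and Bmp7 around EMT and invasion. Plau, the urokinase plasminogen activator (chr14:18499577-18499636, mm7), read 0.93, 0.89 and 2.0 against -1.06, -2.35, -0.19 and -1.19, with 0.90 in tumor 470, and the groups overlapped only through tumor 470. The difference was 2.05 ± 0.65 with and 2.47 ± 0.52 without tumor 470 (limma adjusted p = 0.626 and 0.0835), and a second Plau probe gave 1.31 without it. Loxl2, a lysyl oxidase that crosslinks matrix (chr14:64339741-64339800), read 1.07, 1.35 and 0.79 against -0.84, -1.02, -0.49 and 0.55, with 1.73 in tumor 470. Loxl2 thus had its highest value in an adenocarcinoma, and its difference was 1.08 ± 0.59 with and 1.52 ± 0.42 without that tumor (adjusted p = 0.629 and 0.153, limma), while a second Loxl2 probe gave 2.26 and 2.77. Bmp7, a bone morphogenetic protein that opposes TGF-beta signaling (chr2:172614090-172614149), read -2.82, -2.45 and -1.80 against 3.19, 3.0, -3.16 and 1.63, with -1.04 in tumor 470. Its lowest value was that of adenocarcinoma 17, so the groups overlapped in both fits. The difference was -3.08 ± 1.32 with and -3.52 ± 1.33 without tumor 470 and did not pass (limma adjusted p = 0.626 and 0.276).

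Secreted proteases had differences of several-fold that did not pass. Mmp10 (stromelysin-2) read 4.31, 3.89 and 3.48 in the sarcomatoid tumors against 0.36, -0.50, 2.51 and 0.76, with 4.46 in tumor 470. Mmp3 (stromelysin-1) read 2.73, 0.83 and 1.75 against 0.22, -2.42, -2.29 and -2.05, with 4.63 in tumor 470. Mmp13 (collagenase-3) read 4.25, 4.93 and 5.24 against 1.45, 0.52, 4.04 and 1.90, with 6.93. Tumor 470 had the highest value of the 8 for all 3 of these proteases, and without it each separated the groups. Without tumor 470, Mmp3 differed by 3.41 ± 0.69 (limma adjusted p = 0.0795) and Mmp10 by 3.11 ± 0.63 (adjusted p = 0.0786). Mmp9, a gelatinase, spread more within the sarcomatoid tumors, at -1.26, 0.49 and 3.36. Of the 15 plasminogen and matrix protease genes with their inhibitors, 0 passed in either fit, 14 were higher by value without tumor 470, and the median difference was 1.44 with and 1.97 without it.

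Matrix genes of fibroblasts were higher by value and more variable. Of 24 such genes, 23 were higher by value with tumor 470 and 24 without it, with median differences of 0.96 and 1.5, but 0 passed. Without tumor 470, 6 did not overlap, against 8.83% of all probes wholly higher. Lum, the matrix proteoglycan lumican (chr10:97135063-97135122, mm7), read 5.59, 4.77 and 5.67 in the sarcomatoid tumors and 4.95, 1.29, 0.89 and 0.32 in the adenocarcinomas, with 6.45 in tumor 470. The adenocarcinomas of scan batch 2, 105 and 470, were thus as high as the sarcomatoid tumors. Tnc, the matricellular protein tenascin C, read 3.71, 4.47 and 3.81 against 2.75, -0.47, 2.50 and 1.94, with 4.07 in tumor 470. The difference for Tnc without tumor 470 was 2.32 ± 0.71 (limma adjusted p = 0.195). Dcn (decorin) read -0.05, -0.21 and -0.01 against 0.22, -2.28, -3.45 and -3.66, with 3.23 in tumor 470, so that tumors 105 and 470 exceeded all 3 sarcomatoid tumors. The list median in each tumor was -0.68, 0.02 and 0.86 in the sarcomatoid tumors, -0.17, -2.31, -1.85 and -1.09 in the adenocarcinomas and 1.05 in tumor 470. Contractile genes differed less (medians 0.40 and 0.75). Cald1, which encodes the actin-binding caldesmon, was the only 1 of 9 that did not overlap. With all 8 tumors, 3.9% of all probes lay wholly higher. Cald1 read 2.15, 1.59 and 2.48 against 0.54, 0.02, 0.75 and 1.25, with 1.19 in tumor 470 (1.32 ± 0.36 with all 8, limma adjusted p = 0.626).

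**Figure D2:**
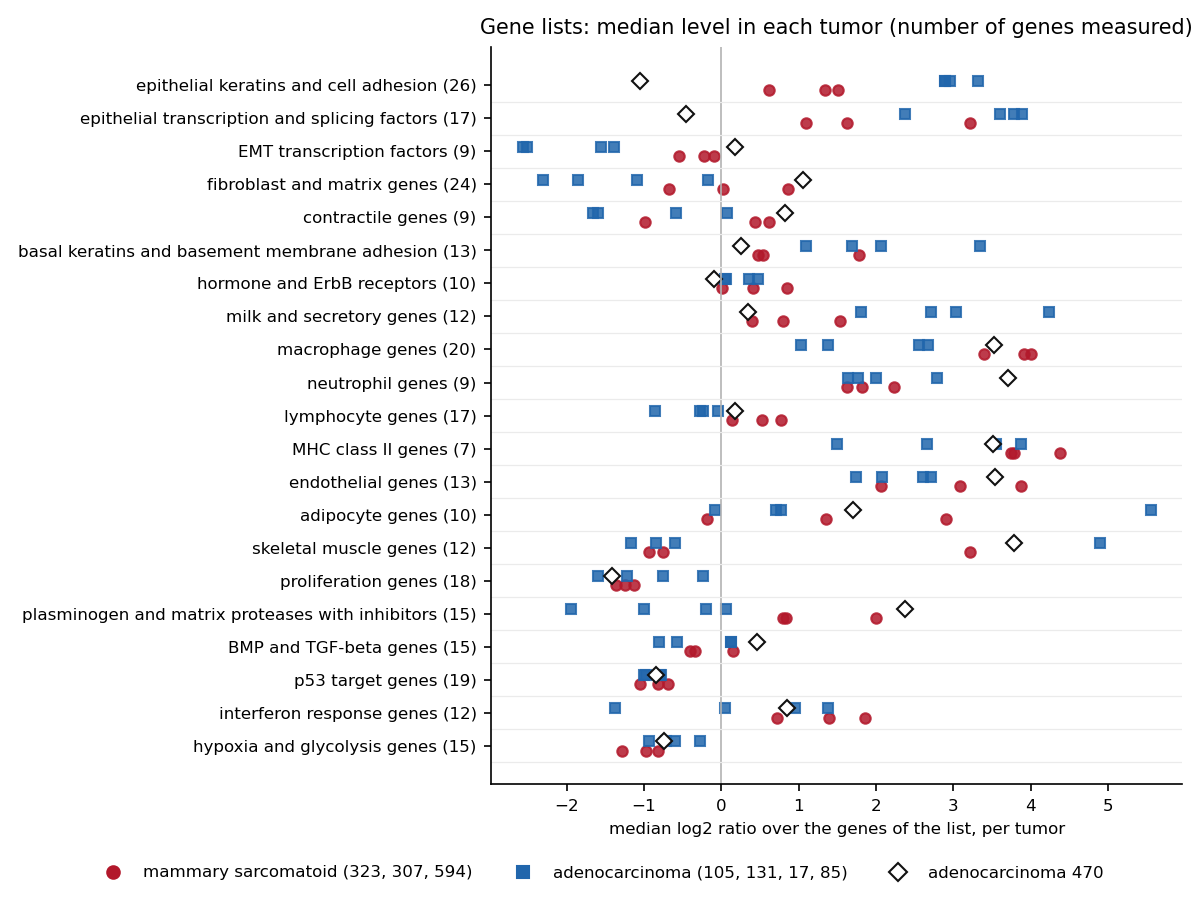
Median log2 ratio (tumor over reference, x axis) over the genes of each list in each tumor, with the number of genes measured in brackets. Red circles are the 3 sarcomatoid tumors, blue squares the adenocarcinomas 105, 131, 17 and 85, and open diamonds adenocarcinoma 470. On the epithelial adhesion list tumor 470 (-1.05) lies below the sarcomatoid tumors (0.61 to 1.51), on the protease list it (2.38) lies above them (0.80 to 2.0), and on the proliferation and p53 target lists all tumors lie close together.

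Macrophage genes were higher by value in the sarcomatoid tumors in both fits. This held for 20 of 20 genes, with median differences of 1.38 with and 1.64 without tumor 470. Of all 40196 probes, 19692 were higher by value with tumor 470 and 19542 without it. At an unadjusted p below 0.05, 13 macrophage genes were higher with tumor 470 and 16 without it, against 4.56% and 7.73% of all probes. Of the 20 genes, 0 passed the adjusted test. Median levels over the list were 4.0, 3.40 and 3.91 in the sarcomatoid tumors, 2.67, 1.38, 2.56 and 1.03 in the adenocarcinomas, and 3.53 in tumor 470, which lay inside the sarcomatoid range. All 20 genes were well above background in red on the 8 arrays. Mrc1, the mannose receptor CD206 (chr2:14281098-14281158, mm7), read 8.56, 6.06 and 7.49 against 5.75, 3.57, 4.82 and 4.36, with 7.55 in tumor 470. Its difference was 2.16 ± 0.86 with and 2.75 ± 0.65 without tumor 470 (limma adjusted p = 0.626 and 0.11), and the groups overlapped only through that tumor. Itgam, the integrin subunit CD11b of myeloid cells (chr7:124214519-124214578), read 5.09, 3.59 and 5.05 against 2.85, 1.69, 2.57 and 2.76, with 4.28 in tumor 470. Itgam differed by 1.74 ± 0.57 and 2.11 ± 0.46 in the 2 fits (limma adjusted p = 0.626 and 0.0926), whereas its other probe gave only 0.50 without tumor 470. Cd163, a scavenger receptor of macrophages, separated the groups even with tumor 470, at 4.79, 5.16 and 5.33 against 4.62, 1.60, 2.85 and 0.55, with 4.40 (2.29 ± 0.86 with all 8, limma adjusted p = 0.626). The scavenger receptor Msr1 read 3.71, 3.01 and 3.58 against 0.14, 0.22, 2.30 and -0.36, with 3.36 in tumor 470, and differed by 2.86 ± 0.59 without it (limma adjusted p = 0.0825).

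MHC class II and lymphocyte genes were mostly higher by value, and neutrophil genes were not. The 7 MHC class II genes, whose products present antigen, were all higher by value (medians 1.02 and 1.18). Even with tumor 470, 3 did not overlap, against 3.9% of all probes wholly higher. H2-Aa read 6.54, 5.92 and 6.32 in the sarcomatoid tumors against 5.33, 3.36, 5.15 and 5.00, with 5.84 in tumor 470 (1.32 ± 0.51, limma adjusted p = 0.626). Of 17 lymphocyte genes 15 were higher by value with tumor 470 (medians 0.60 and 1.09 in the 2 fits), although only 6 were well above background in red on all 8 arrays. Gzmb, the cytotoxic protease granzyme B, read 3.67, 3.33 and 3.26 against 1.53, 2.34, 0.37 and -0.50, with 3.13 in tumor 470, and the 3 sarcomatoid values were the highest of the 8. Ptprc (CD45), a surface phosphatase of all leukocytes, read 0.77, -0.32 and 0.53 against -0.78, -2.97, -1.38 and -3.22, with 0.18 in tumor 470. Neutrophil genes showed no common direction (medians -0.18 and 0.03, with 4 of 9 higher by value). Cxcr2, a chemokine receptor of neutrophils, lay lower in the sarcomatoid tumors without overlap, at 1.19, 1.23 and 0.71 against 1.68, 1.64, 1.64 and 4.19, with 3.66 in tumor 470 (-1.52 ± 0.64, limma adjusted p = 0.626), but a second Cxcr2 probe gave -0.14.

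S100a4, a small calcium-binding protein linked to cell motility, and Arsj, a sulfatase, were the remaining 2 of the 11 genes the study named. The S100a4 probe (chr3:90736122-90736182, mm7) read 0.78, -2.67 and 0.34 in the sarcomatoid tumors and -2.98, -4.94, -4.91 and -5.64 in the adenocarcinomas, with -2.01 in tumor 470. Sarcomatoid tumor 307 lay below adenocarcinoma 470 and close to adenocarcinoma 105, so the groups overlapped by that 1 pair. The difference was 3.58 ± 0.98 (11.9-fold, limma adjusted p = 0.626) with tumor 470 and 4.10 ± 0.87 (17.2-fold, adjusted p = 0.0868) without it. Within scan batch 2 it was 1.33, with 0.31 for tumor 307 minus 105 and 2.34 for tumor 594 minus 470. By single-cell sequencing, the study found S100a4 in T, myeloid, stromal and epithelial cells of tumors of this model. Which cells carried the S100a4 difference in these bulk tumors was not tested. Arsj (chr3:126277484-126277543) read 1.57, 0.72 and 1.70 against -2.12, -4.17, -3.29 and -3.24, with 0.86 in tumor 470. Tumor 470 lay within the sarcomatoid range for Arsj, and the other adenocarcinomas were far below it. Arsj differed by 3.72 ± 0.96 with tumor 470 (13.2-fold, adjusted p = 0.626) and rose by 4.53 ± 0.49 without it (23.1-fold, adjusted p = 0.044 in limma), although only 2 of those 4 adenocarcinomas had a red signal well above background. For Arsj the difference without tumor 470 was 2.99 on the log2 scale after normexp and loess, and within batch 2, with tumor 470 counted, it was 1.84. All 11 genes were chosen by the study on these tumors, so none of these differences is independent evidence.

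**Figure D3:**
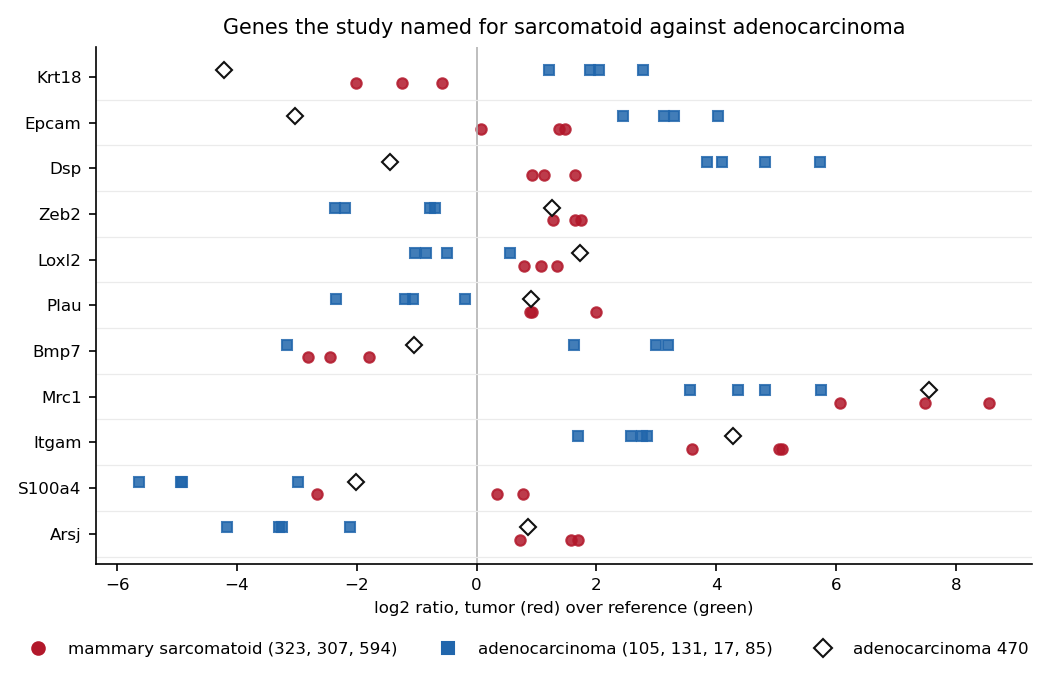
Log2 ratio (tumor over reference, x axis) of the 11 genes the study named, 1 point per tumor. Red circles are the 3 sarcomatoid tumors, blue squares the adenocarcinomas 105, 131, 17 and 85, and open diamonds adenocarcinoma 470. For Krt18, Epcam and Dsp tumor 470 has the lowest value of the 8, for Zeb2, Arsj and Mrc1 it lies beside the sarcomatoid tumors, and for Bmp7 adenocarcinoma 17 (-3.16) lies below the sarcomatoid values.

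Because tumor 470 resembled the sarcomatoid tumors, the genes that separated the groups with it included form a set of their own. By the rule, the 8 genes in each direction with the smallest p were taken among non-overlapping probes that carried a gene name on the array and were well above background in red on every array of the higher group, so their separation is what chose them and 0 of them passed the adjusted test with all 8 tumors (limma adjusted p 0.613 to 0.626). The genes higher in the sarcomatoid tumors included Rgs18, Ccr2, Ccl17 and Clec4a2. Rgs18, a regulator of G protein signaling in blood cells (chr1:144678980-144679039, mm7), read 6.61, 4.51 and 6.75 against 2.54, 2.70, 1.55 and 2.10, with 2.91 in tumor 470. Ccr2, the receptor that brings monocytes out of the blood (chr9:123827706-123827765), read 5.42, 5.30 and 6.08 against 2.87, 1.24, 2.44 and 0.73, with 3.07 in tumor 470. Ccl17, a chemokine made by dendritic cells and macrophages (chr8:93400914-93400973), read 4.45, 1.74 and 3.27 against -0.53, -1.27, 0.34 and -0.47, with -0.24. For Ccl17 tumor 470 lay inside the range of the other adenocarcinomas, and for Rgs18 and Ccr2 it was slightly above that range. The differences with all 8 tumors were 3.60 ± 0.54 for Rgs18, 3.53 ± 0.55 for Ccr2 and 3.59 ± 0.57 for Ccl17, each of 11.5-fold or more, whereas after normexp and loess they were 2.25, 2.08 and 3.17. Second probes of Rgs18 and Ccr2 gave 3.63 and 3.28. Clec4a2, a lectin receptor of myeloid cells, read 6.68, 6.86 and 6.18 against 3.32, 2.84, 4.03 and 2.41, with 4.80 in tumor 470, though its second bright probe differed by 1.15.

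The other 4 higher genes were Trpa1, Pcdh19, Adamts8 and Raet1e. Trpa1, an ion channel of sensory neurons (chr1:15055438-15055497, mm7), read -1.07, -0.80 and 0.63 against -2.81, -3.0, -2.79 and -3.0, with -2.86 in tumor 470, and only 2 of the 5 adenocarcinomas were well above background. Pcdh19, a protocadherin, read -0.60, -1.24 and -1.08 against -3.03, -4.37, -3.80 and -3.81, with -2.48 in tumor 470. The tumors of each kind were thus close to each other for Pcdh19, with a difference of 2.52 ± 0.43 that passed without tumor 470 (2.77 ± 0.38, limma adjusted p = 0.044). A second Pcdh19 probe gave 1.38 with and 1.54 without tumor 470 and did not pass. Adamts8, a secreted metalloproteinase, read 6.56, 5.38 and 5.34 against 3.43, 3.47, 2.97 and 2.81, with 4.45 in tumor 470. Raet1e, a stress ligand of the NKG2D receptor, read -0.84, -1.65 and -0.47 against -3.39, -3.09, -3.15 and -3.26, with -2.27 in tumor 470. Raet1e has near-identical relatives that its probe may not tell apart.

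The other 8 genes were lower in the 3 sarcomatoid tumors than in all 5 adenocarcinomas. Cd9, a tetraspanin of the cell surface (chr6:125498919-125498978, mm7), read -1.21, 0.20 and -1.19 against 1.31, 1.69, 2.04 and 2.22, with 0.81 in tumor 470. Bnc1, a zinc finger factor of basal keratinocytes (chr7:77840380-77840439), read -5.63, -4.69 and -4.20 against -1.90, -2.61, -2.88 and -2.84, with -1.60 in tumor 470, the highest of the 8. For both genes tumor 470 lay on the side of the other adenocarcinomas. Cd9 differed by -2.35 ± 0.44 and Bnc1 by -2.48 ± 0.43 with all 8 tumors, while a second bright Cd9 probe differed by -1.03. Nr4a2, a nuclear receptor induced early after stimulation, read -1.24, -1.19 and -1.62 against 0.46, 0.37, -0.36 and 0.45, with -0.19 in tumor 470. Adora1, an adenosine receptor, read -0.40, 0.39 and 1.46 against 3.06, 3.83, 3.10 and 4.11, with 1.64 in tumor 470, which lay closer to sarcomatoid tumor 594 than to any other adenocarcinoma. The other 2 Adora1 probes differed by only -0.27 and -1.56. Spsb4, Tanc1, Tmem117 and Apobec3 differed by -2.05, -2.04, -1.65 and -2.05 with all 8 tumors, and other probes of Tanc1 and Apobec3 gave smaller differences (-1.32 to -0.48). Of the 16 genes, Rgs18, Ccr2, Clec4a2, Pcdh19, Raet1e, Adamts8 and Adora1 also passed without tumor 470. After normexp and loess the differences with all 8 tumors shrank from 2.48 to 1.02 for Trpa1 and from 2.33 to 1.22 for Adamts8. They shrank from -2.48 to -1.39 for Bnc1 and from -2.66 to -1.50 for Adora1. With all 8 tumors, 22 of the 90 named genes with a loess value moved by more than 1.5-fold. All 22 became smaller and 0 changed sign.

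**Figure D4:**
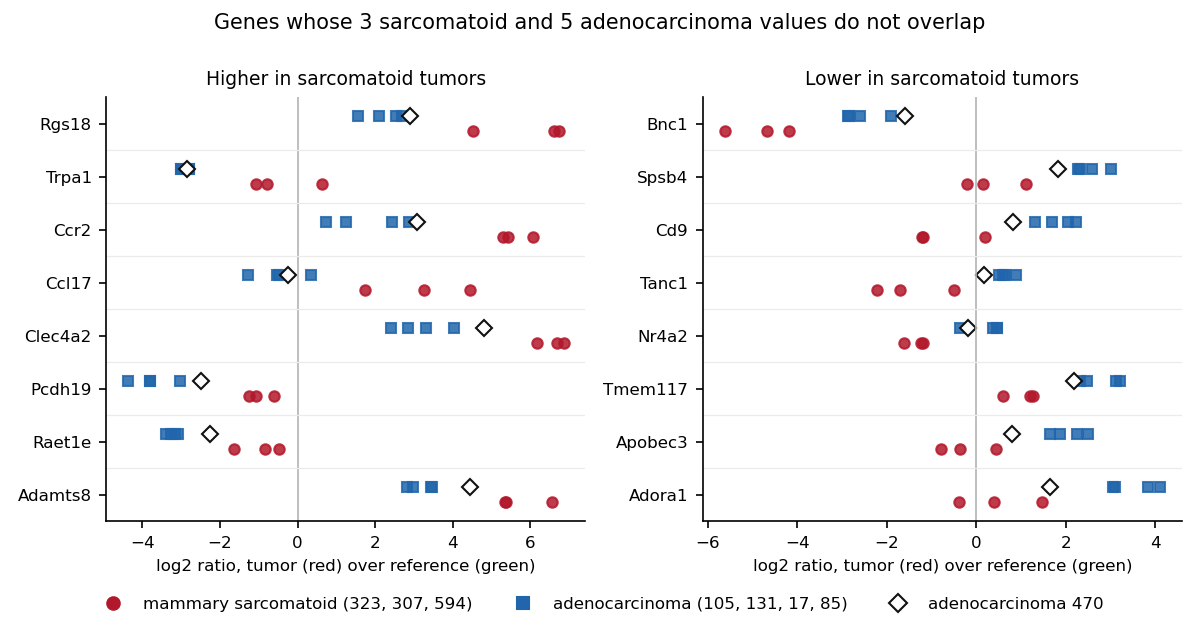
Log2 ratio (tumor over reference, x axis) of the 8 genes higher and the 8 genes lower in the sarcomatoid tumors whose groups do not overlap with tumor 470 included, 1 point per tumor. Red circles are the 3 sarcomatoid tumors, blue squares 4 adenocarcinomas and open diamonds adenocarcinoma 470. For Rgs18 the sarcomatoid values run from 4.51 to 6.75 and all 5 adenocarcinomas from 1.55 to 2.91, and for Bnc1 the sarcomatoid values run from -5.63 to -4.20 and the adenocarcinomas from -2.88 to -1.60.

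The 63 probes that rose without tumor 470 stood for 40 genes with a name on the array and the 38 that fell for 24. The largest difference in each direction was that of a probe listed under a clone name, which the rule for named genes passes over, namely Brinp3 (5.74, 53.5-fold, and 6.26 as the value in tumor 470, the highest of the 8) and Limch1 (-4.19, 18.2-fold), both named here after their values were seen. After normexp and loess these 2 differences were 3.27 and -1.42. The 8 genes with the largest rise by the rule included Arsj, Ccr2 and Rgs18, given above. Stmn4, a stathmin that binds tubulin, read 3.77, 5.21 and 4.64 against 1.58, -0.97, 0.25 and -0.20, with 3.44 in tumor 470. Steap1, a metalloreductase of the cell membrane, read -0.11, -0.89 and -0.04 against -4.12, -5.38, -3.49 and -4.66, with 0.24 in tumor 470. Pcolce2, an enhancer of procollagen processing, read 2.55, 2.35 and 1.89 against -0.52, -2.41, -0.69 and -2.74, with 2.40. Steap1 and Pcolce2 thus overlapped once tumor 470 was counted, and Stmn4 did not. Stmn4 rose by 4.38 ± 0.59, Steap1 by 4.07 ± 0.47 and Pcolce2 by 3.85 ± 0.58 without tumor 470 (limma adjusted p 0.044 to 0.0477), and a second Steap1 probe also passed. Bdh2, a dehydrogenase, and Rhd, a Rhesus blood group protein, rose by 3.73 ± 0.47 and 3.63 ± 0.51, but a second Bdh2 probe differed by 0.54 and did not pass. Also called higher were Pdpn (podoplanin) and Cav1 (caveolin-1) with 2 probes each, and Hgf, the ligand of the Met receptor, with 2 probes. These 3 were named after their values were seen and are not all the genes called by more than 1 probe. Colec12 and Gng2, and Medag and Tstd3 under clone names, were also called higher by 2 probes each.

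The 8 genes with the largest fall by the rule included Krt18, Dsp and Adora1, given above. Hunk, a kinase regulated in mammary gland development (chr16:90549323-90549381, mm7), read -2.99, -2.32 and -2.77 against 0.82, 1.41, 1.17 and 0.21, with -2.09 in tumor 470. Cldn1, a claudin of tight junctions (chr16:26018826-26018885), read 1.31, -0.08 and 1.16 against 4.27, 3.69, 3.06 and 3.53, with -0.01 in tumor 470. Ceacam1, an adhesion protein of epithelial cells, read -0.05, -0.11 and 0.51 against 2.54, 4.43, 3.57 and 4.16, with 0.07. Tumor 470 lay in or next to the sarcomatoid range for all 3. Hunk fell by 3.60 ± 0.37, Ceacam1 by 3.56 ± 0.47 and Cldn1 by 2.84 ± 0.44 on the log2 scale (limma adjusted p 0.044 to 0.0477), and second probes gave -3.31 for Cldn1 and -1.88 for Ceacam1 without passing. Sbsn (suprabasin, of keratinocytes) and Slc28a3 (a nucleoside transporter) fell by 3.08 ± 0.45 and 2.82 ± 0.39. Llgl2, Pard6b and Patj, which build the apical and lateral cell poles, and Grb7, an adaptor of receptor kinases, were among the other genes called lower and were named after their values were seen. A probe for Med12l was also called, with a red signal well above background on 0 arrays, so it gives no level. Of the 90 named genes with a value after normexp and loess, the difference without tumor 470 was more than 1.5-fold away from that in the deposited table for 24, smaller in all 24, and 0 changed sign. Among them were Hunk (-2.89), Ceacam1 (-2.81), Sbsn (-1.97), Cldn1 (-1.43), Ovol1 (-1.24), Gzmb (1.15) and Cd163 (1.05).

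Tumor 470 was left out because its profile lay with the sarcomatoid tumors, so its place on the called probes describes that likeness gene by gene and is not a separate measurement. Of the 63 probes called higher, tumor 470 lay within or beyond the sarcomatoid range for 41, between the groups for 22 and within the range of the other adenocarcinomas for 0. Of the 38 called lower, the numbers were 30, 7 and 1, the last being the dim Med12l probe. Setting the mean of the other adenocarcinomas at 0 and the sarcomatoid mean at 1, the median place of tumor 470 was 0.98 on the probes called higher and 1.46 on those called lower. On the probes called lower tumor 470 thus lay past the sarcomatoid mean. Over all 3550 probes that did not overlap in the higher direction without tumor 470, 55.8% had tumor 470 within or beyond the sarcomatoid range and 25.8% between the groups, and over the 2529 in the lower direction the first share was 69.4%. For the same reason the calls made without it are no independent evidence for the group difference.

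**Figure D5:**
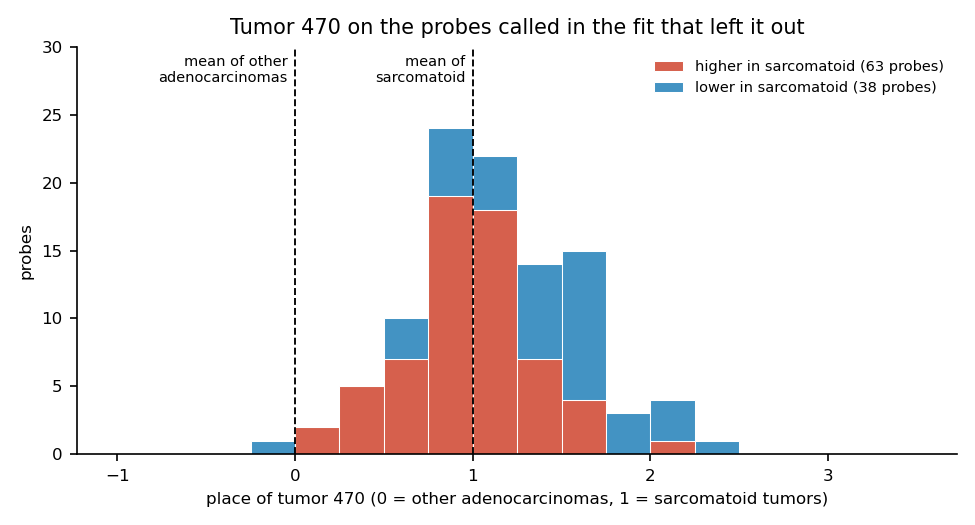
Number of probes (y axis) by the place of tumor 470 (x axis) on the 101 probes called without it, where 0 is the mean of adenocarcinomas 105, 131, 17 and 85 and 1 the mean of the 3 sarcomatoid tumors. Red bars are the 63 probes called higher and blue bars, stacked on them, the 38 called lower. Most probes lie near or above 1, with medians of 0.98 and 1.46.

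The comparison inside scan batch 2, the only one with both kinds of tumor, sets tumors 307 and 594 against 105 and 470. With scan batch as a term in limma, 0 probes passed the adjusted threshold with tumor 470 (353 higher and 512 lower before adjustment) and 0 without it (978 and 1233). Within batch 2 the epithelial adhesion list had a median difference of 0.03, against -1.0 over all 8 tumors. The 2 slides gave opposite signs, since the list median was -1.73 for tumor 307 minus 105, with 0 of 26 genes higher, and 2.17 for tumor 594 minus 470, with 24 of 26 higher. Protease genes differed likewise by slide (1.29 and -0.79), as did EMT transcription factors (1.24 with 6 of 9 higher, and -0.49 with 3 of 9 higher), whose median within batch 2 was -0.02 against 0.92 over all 8 tumors. Fibroblast genes went both ways on either slide (medians 0.0 and -0.21, with 12 and 8 of 24 higher), from -2.39 for Col1a1 to 2.51 for Fn1 in tumor 307 minus 105 and from -3.24 for Dcn to 0.67 for Col6a2 in tumor 594 minus 470. Macrophage genes kept their direction on both slides (0.60 with 18 of 20 higher, and 0.40 with 15 of 20 higher), as did MHC class II genes (0.30 and 0.69) and interferon response genes (0.62 and 0.51). Lymphocyte genes had medians of -0.01 (7 of 17 higher) on the slide of 307 and 105 and 0.18 (13 of 17 higher) on the other. Their median within batch 2 was 0.14, against 0.60 over all 8 tumors. Every probe called without tumor 470 had groups that did not overlap without it, which fixes the sign of tumor 307 minus 105. The slide of 594 and 470 gave the direction of the call for 33 of the 63 probes called higher and 11 of the 38 called lower. Of the 92 named genes, the difference within batch 2 was more than 1.5-fold away from that over all 8 tumors for 68, smaller in size in 65 of these, and of the opposite sign for 12. These slide differences are single pairs without a test, and they were added after the data were seen.

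The remaining lists differed less, or by single tumors. Of the 10 hormone and ErbB receptor genes and ligands, Erbb2 (chr11:98545828-98545887, mm7) read -1.41, -1.06 and -1.45 in the sarcomatoid tumors against 0.24, -0.07, 0.68 and 1.12, with -1.20 in tumor 470, and its difference without tumor 470 was -1.80 ± 0.36 (limma adjusted p = 0.0752). Erbb3, its partner receptor, read 1.89, 0.54 and 0.78 against 2.91, 3.05, 2.36 and 3.32, with -1.68 in tumor 470. Tnfsf11 (RANKL), a paracrine mediator of progesterone, ran the other way, at 2.15, 2.65 and 2.89 against 1.49, 0.20, -0.43 and -0.85, with 3.76 in tumor 470. The list median was near that of all probes (0.02 and 0.00). Milk genes were lower by value for 10 of 12 genes (medians -0.95 and -1.64), 0 passed, and the milk protein Csn2 was high in single tumors, at 7.80 in tumor 131, 7.33 in tumor 85 and 4.07 in sarcomatoid tumor 307. Glycam1, another secretory gene, was not well above background in any sarcomatoid tumor and was well above it in 2 adenocarcinomas, 105 (5.44) and 131 (4.01).

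Growth and stress lists showed little. The 18 proliferation genes had a median difference of -0.03 with and -0.12 without tumor 470, and Foxm1, a factor of the G2 and M phases, had the largest named one, at -2.12, -1.72 and -1.52 against -1.04, -1.21, -0.36 and 0.61, with -2.05 in tumor 470 (-1.28 ± 0.46 without it, limma adjusted p = 0.254). The 19 p53 target genes had medians of 0.10 and 0.12, in tumors that by the methods all carried a Trp53 mutation. Of these targets, Sesn1, a stress-induced sestrin, was higher without overlap at 1.06, 0.09 and 1.03 against -0.15, -1.0, -0.79 and -0.93, with -0.06 in tumor 470, and Perp, a desmosomal protein as well as a p53 target, was lower without tumor 470 at 0.76, -0.69 and -0.68 against 3.17, 1.78, 1.89 and 1.99, with -2.0 in tumor 470. Neither passed (limma adjusted p = 0.626 for Sesn1 with all 8 tumors and 0.0786 for Perp without tumor 470). The 12 interferon response genes were all higher by value (medians 0.67 and 0.75) and 0 passed. Hypoxia and glycolysis genes were lower by value for 11 of 15 (median -0.28 in both fits), and Aldoa, the glycolytic aldolase A, did not overlap at -1.96, -0.89 and -1.16 against 1.44, 0.15, -0.71 and 0.59, with -0.54 in tumor 470. BMP and TGF-beta genes had medians of 0.11 and 0.14, although both receptors Tgfbr1 and Tgfbr2 were higher by value (1.42 ± 0.34 and 1.36 ± 0.39 without tumor 470, limma adjusted p = 0.113 and 0.173), with a second Tgfbr1 probe at -0.48.

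Genes of adjoining tissue varied between tumors of the same kind. The median of 12 skeletal muscle genes was 3.22 in sarcomatoid tumor 594, 4.90 in adenocarcinoma 105 and 3.78 in adenocarcinoma 470, and between -1.17 and -0.60 in the other 5 tumors. The median of 10 adipocyte genes was highest in tumor 105 (5.55), and between -0.19 and 2.90 in the others. All 3 tumors high in muscle genes were in scan batch 2, and the part of this tissue in the differences above was not tested. Endothelial genes were higher by value for 10 of 13 genes with tumor 470 (medians 0.22 and 0.38 in the 2 fits), with list medians of 2.06, 3.09 and 3.88 in the sarcomatoid tumors, 2.61, 2.08, 1.74 and 2.71 in the adenocarcinomas and 3.54 in tumor 470. Of 12 genes of testis and liver, taken to look at the green channel, 3 were well above background in green on all 8 arrays. In red 2 were. The median difference over the 12 was 0.29 with and 0.28 without tumor 470. Yet 4 of the 12 lay wholly higher in the sarcomatoid tumors with tumor 470 and 5 without it, against 3.9% and 8.83% of all probes. None lay wholly lower. The counts without overlap in other short lists are to be read beside these. Macrophage list medians were 3.40 to 4.0 in the sarcomatoid tumors against 1.03 to 3.53 in the adenocarcinomas. Tumors 323, 307, 594 and 470 had both lower epithelial adhesion medians (-1.05 to 1.51) and higher macrophage medians (3.40 to 4.0). Tumors 105, 131, 17 and 85 had the reverse (2.89 to 3.32 and 1.03 to 2.67). The order within these sets was not the same for both lists. Tumor 470 had the lowest epithelial adhesion median (-1.05) and a macrophage median (3.53) inside the sarcomatoid range. The part of macrophages in the epithelial differences was not tested either.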

How the data were processed

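RNA of 8 mouse tumors was measured on 2-colour Agilent mouse arrays, 1 per tumor. Per the file headers, the scanner files hold red and green intensities per spot, with the local background, a processed signal, flags and gene names. The authors deposited a normalized table of log2 ratios, made with limma (no version or steps are given in the sources used here). It was used as deposited, and its columns correlated best with red over green of their own arrays. The table holds 42515 rows, or 40196 probes after control rows were dropped and repeated spots averaged, and 978 of the 41174 probes on the array are absent from it.

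Groups were compared with limma 3.58.1 (R 4.3.3) by linear model and empirical Bayes moderation, with group as the only term, two-sided, adjusted by Benjamini-Hochberg over all probes, at a threshold of 0.05. The study names limma and gives no model terms. No filter on dim probes was applied in the fits. Fits were tested on simulated data. Scan batch, slide, array weights, the lung tumors, normexp (offset 50) with loess, processed signals, centring, a filter on dim probes, other probes and single tumors left out were alternatives. The members, the 23 gene lists and the rules were chosen with earlier results of these data known, and so was leaving out tumor 470.

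Named genes were the 11 the study named, 8 per direction that separated all 8 tumors by smallest p, 8 per direction by size without tumor 470, and up to 4 per list by size without tumor 470, cut to 2 or 1 in some lists after the values were seen. The picks by p and by size were taken among probes well above background in red on every array of the higher group, and probes listed only by a clone or accession were passed over. A list gene stands by its brightest probe. Probes were named from the files and updated to RefSeq symbols (22690 by accession, 6433 by symbol, 3033 by synonym, 8040 unmatched). Probe positions are those of mm7 in the scanner files, and promoters are RefSeq GRCm38.p6. The number of arrays limits the precision.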

Additional observations from a re-analysis of the deposited data

Results flagged for a closer look

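Among 92 named genes and 23 list medians, the 5 adenocarcinomas were checked for a single tumor far from the others (115 checks). Chance alone flags about 1 in 20 such checks, but only for measures picked without regard to these values. Many of the named genes were picked by their difference without tumor 470. That favours genes in which the other 4 adenocarcinomas agree and tumor 470 differs, so the rate does not apply to them. A total of 11 checks stood out, and in each the tumor was 470, which is partly built in by this choice. Its log2 ratio was below the other 4 adenocarcinomas for Krt18 (-4.22, others 1.21 to 2.78), Krt8 (-4.58, others 1.10 to 2.33), Epcam (-3.03, others 2.44 to 4.03), Dsp (-1.44, others 3.85 to 5.73), Cldn1 (-0.01, others 3.06 to 4.27) and Perp (-2.0, others 1.78 to 3.17). The same held for the epithelial factor Grhl2 (-0.65, others 4.59 to 5.46), the receptor Erbb3 (-1.68, others 2.36 to 3.32), the transporter Slc28a3 (0.95, others 4.51 to 5.81) and the median of the epithelial adhesion list (-1.05, others 2.89 to 3.32). Raet1e was the 1 gene in which tumor 470 was above the others (-2.27, others -3.39 to -3.09). The checks share tumors and related genes and are not independent. What sets tumor 470 apart was not tested.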

How the results depend on the processing

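With all 8 tumors, 0 probes passed in either direction under every alternative except leaving out tumor 470 (range over single tumors left out 0 to 63 higher and 0 to 38 lower). Without tumor 470, leaving out a further tumor gave 0 to 231 higher and 0 to 141 lower, the highest without tumor 105. Array weights gave 208 and 156, bright probes only 157 and 91, the lung tumors as a group of their own 125 and 85, and processed signals and the scan batch as a term 0 and 0, and the cause was not tested. The slide as a random block could be fitted only with all 8 tumors. Of the unadjusted calls with all 8 tumors, 57.2% were higher, against 39.5% with processed signals and 40.8% with the batch term, and without tumor 470 52.9% against 39.6% with processed signals.

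With the batch term, which leaves the difference within batch 2, signs turned for Epcam (0.60), Spint2 (0.06), Krt8 (0.78), Spdef (0.52), Erbb3 (0.04), Csn2 (0.90), Egln3 (0.48), Snai2 (-0.29), Lum (-0.48), Dcn (-1.84), Mmp8 (-0.49) and Mmp3 (-1.13), and without tumor 470 for Snai2 (-0.15), Dcn (-0.33), Csn2 (0.69) and Egln3 (0.05). Other probes turned Esr1 (-0.69 in both fits), Tgfbr1 (-0.32, and -0.48 without tumor 470) and Cxcr2 (0.12 without tumor 470). Processed signals turned Emcn (-0.07 and -0.05). Over single tumors left out, Mmp8 ran from -0.26 to 1.38, and Actn3, without tumor 470, from -2.66 to 0.79. Of the 22 named genes called without tumor 470, 14 were lost with loess and all 22 with processed signals, the batch term, or tumor 323, 307, 594, 131 or 85 also left out. Replicate numbers were given in deposit order and pair no tumors, so they gave no block, and the shared slides and scan batch entered as the random block and the term above.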
